A study of Arabidopsis thaliana with 24 samples.

Results

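Nitrate uptake and nitrogen assimilation were followed through 9 genes of Arabidopsis thaliana, selected by locus identifier from a table of 27655 genes. They are the nitrate transporters NRT1.1 (AT1G12110) and NRT2.1 (AT1G08090), the nitrate reductases NIA1 (AT1G77760) and NIA2 (AT1G37130) and the nitrite reductase NIR1 (AT2G15620). The others are the glutamine synthetases GLN2 (AT5G35630) and GLN1;1 (AT5G37600), the glutamate synthase GLU1 (AT5G04140) and the asparagine synthetase ASN1 (AT3G47340). The study exposed plants to salt, mannitol and heat, alone and in every combination, and sequenced RNA from 24 rosette libraries in 8 groups of 3 replicates. All plants were wild-type Columbia-0 grown on soil for about 4 weeks in long days. The sample labels name rosettes, whereas the series text speaks of seedlings.

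Control plants stayed at 22 °C with no treatment recorded. Salt was 150 mM NaCl and mannitol, an osmotic stress, was 200 mM, each given in the water 16 h before harvest. The salt plus mannitol group received both in 1 solution. Heat was 35 °C for the last 4 h in another growth cabinet. The groups salt plus heat, mannitol plus heat, and all 3 stresses had the same watering followed by the same heat. No watering is recorded for the control and heat groups, so in a comparison with control the act of watering and the solute in it cannot be told apart. In the same way the move to another cabinet cannot be told apart from the temperature. How many plants went into a library is not given, and the p-values therefore rest on library-to-library spread alone, which may in part be technical. In whole rosettes, fewer cells of a type and less RNA per cell cannot be told apart.

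The libraries held between 12.5 and 19.5 M assigned reads (M, 1e6 reads), with 21870 to 22358 genes detected by at least 1 read. The photosynthesis genes RBCS1A, CAB1, LHCB2.1 and RCA marked green leaf in every library, the lowest value being 1330 TPM (a level per length, on the authors' deposited scale). The root hair and root epidermis markers EXP7, COBL9, PRP3 and IRT1 reached at most 0.379 TPM in any library, and PYK10, which is also expressed in hypocotyls, 83.2 to 183 TPM. PYK10 was called lower with salt (-0.57), mannitol (-0.38) and salt plus mannitol (-0.62) against control and with mannitol added to heat (-0.45), on the log2 scale. It was called higher with heat on salt-treated plants (0.45) and on those given both solutes (0.44). Its part in the members' changes was not tested. The share of reads from organelle genes was 0.690% in mannitol plus heat replicate 2 and at most 0.136% in the other libraries.

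As background, roots take up nitrate and much of it is carried to the shoot, where nitrate reductase in the cytosol forms nitrite and nitrite reductase in the plastid forms ammonium. Glutamine synthetase and glutamate synthase then build ammonium into amino acids, with the plastid enzymes also recapturing ammonium set free by photorespiration. Asparagine synthetase moves the amide nitrogen of glutamine onto aspartate, giving an amino acid used for nitrogen transport and storage.

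The 250 bases upstream of the annotated transcript start are given for NIA1, NIA2, NIR1 and GLN1;1. For these members the departure of mannitol plus heat from the sum of the single stresses was called lower, at an adjusted p under 0.05. They were read from the RefSeq genome TAIR10.1 along the gene's own strand, and capitals mark motif matches on either strand.
NIA1, chr1:29239485-29239734, minus strand: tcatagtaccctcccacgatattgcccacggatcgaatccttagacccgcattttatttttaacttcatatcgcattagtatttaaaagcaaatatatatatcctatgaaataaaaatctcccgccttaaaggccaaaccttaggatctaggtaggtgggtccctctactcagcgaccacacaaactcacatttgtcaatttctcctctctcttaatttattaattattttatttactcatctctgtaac
NIA2, chr1:14158202-14158451, plus strand: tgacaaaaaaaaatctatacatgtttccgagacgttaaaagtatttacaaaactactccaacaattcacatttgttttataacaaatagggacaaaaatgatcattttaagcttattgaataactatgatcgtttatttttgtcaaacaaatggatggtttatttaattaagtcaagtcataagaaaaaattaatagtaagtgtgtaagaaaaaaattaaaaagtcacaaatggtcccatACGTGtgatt
NIR1, chr2:6810145-6810394, plus strand: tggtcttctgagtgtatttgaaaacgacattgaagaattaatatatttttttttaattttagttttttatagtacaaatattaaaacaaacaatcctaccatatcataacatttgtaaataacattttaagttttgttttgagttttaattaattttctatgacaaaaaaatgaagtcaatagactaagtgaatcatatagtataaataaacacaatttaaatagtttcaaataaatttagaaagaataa
GLN1;1, chr5:14935886-14936135, minus strand: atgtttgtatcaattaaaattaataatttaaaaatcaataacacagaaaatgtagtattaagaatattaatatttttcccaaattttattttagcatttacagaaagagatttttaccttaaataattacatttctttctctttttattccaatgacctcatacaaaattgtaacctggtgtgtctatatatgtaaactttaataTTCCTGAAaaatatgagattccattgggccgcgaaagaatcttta

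Motifs known from plant promoters, 3 in all, were searched. The core of the abscisic acid response element is ACGTG, which the G-box contains. It matched NIA2 with its first base at -10 from the transcript start, and ASN1 at -167 and -166, both within its G-box. It is present in 22.9% of the windows of 27443 protein-coding genes. These have the same length but lie upstream of the annotated gene start, not of a chosen transcript. The heat shock element core, GAANNTTC or TTCNNGAA, matched GLN1;1 at -45 and is present in 16.1% of windows. The G-box, CACGTG, matched ASN1 at -167 and is present in 6.49% of windows. The ASN1 window overlaps another gene, AT3G47341. A match is a description of the letters in a window, not a site.

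Against control, members that changed were mostly lower, though the split depended on the scaling in some comparisons. The counts are over the 8 members that reached the read minimum in every library, which leaves out NRT2.1. A gene is called changed at an adjusted p under 0.05, by edgeR's quasi-likelihood test over 20027 genes, and every comparison with control uses the same 3 control libraries. Salt lowered 1 of the 8, NIA1, where 10.9% of all tested genes were called and 6.4% were called lower. Mannitol changed 5, with GLN1;1 higher and NRT1.1, GLN2, GLU1 and ASN1 lower, where 23.6% of genes were called. Heat changed 4, with GLU1 higher and NRT1.1, NIA1 and ASN1 lower, where 62.6% of genes were called. Scaled by library totals alone, NIR1 was called higher with mannitol (log2 fold change 0.34) and GLU1 was no longer called (-0.20), which makes 2 higher and 3 lower. Under that scaling NIA2 and NIR1 were called higher with heat as well, at 0.32 and 0.24. The split with heat was then even, with NIA2, NIR1 and GLU1 higher and NRT1.1, NIA1 and ASN1 lower.

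Salt plus mannitol changed 4 members, with GLN1;1 higher and NRT1.1, NIA1 and GLN2 lower, where 32.6% of genes were called. Scaled by library totals alone, the 2 that stayed called were GLN1;1, higher, and NIA1, lower. Salt plus heat lowered 5, which were NRT1.1, NIA1, NIA2, NIR1 and GLN1;1, where 63.2% of genes were called and 31.5% were called lower. Mannitol plus heat lowered 7, GLU1 being the one not called, where 64.7% of genes were called and 32% were called lower. All 3 stresses lowered 5, where 65.7% of genes were called and 32.7% were called lower. These 5 were NRT1.1, NIA1, NIR1, GLN2 and ASN1. With library totals alone NIR1 was no longer called in that group (-0.09) and GLU1 was called higher (0.29). The median log2 fold change of the 8 was -0.66 with salt plus heat and -0.75 with mannitol plus heat, beside medians of -0.01 and -0.00 over all tested genes. In salt, heat, salt plus heat and all 3 stresses the share of members called in either direction was near the share of all genes.

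**Figure D1:**
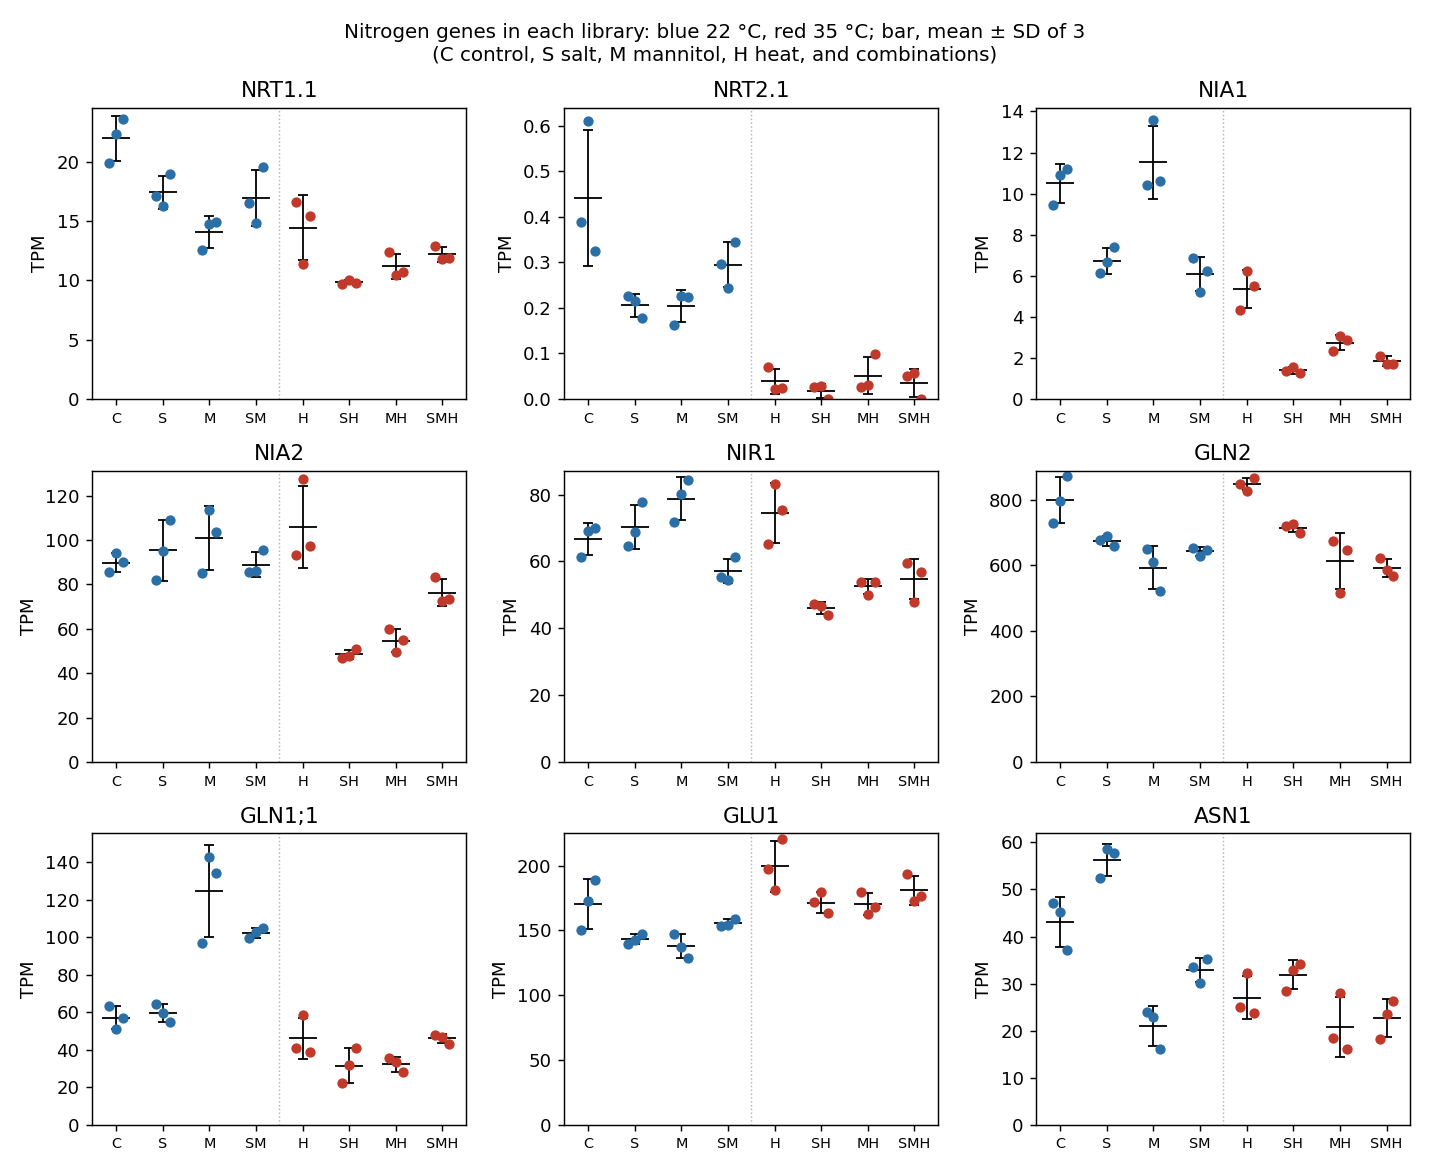
Level of the 9 genes in TPM (vertical axis, from 0) in each of the 24 libraries (points) by group (horizontal axis), with the mean and SD of 3 replicates. NIA1 is at 1.25 to 3.04 TPM in the libraries with heat plus salt or mannitol or both, below every other library, and GLN1;1 is highest in the mannitol and salt plus mannitol libraries.

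NRT1.1, a nitrate transporter that also acts as a nitrate sensor, was highest in control plants. The control libraries had 19.9, 22.4 and 23.7 TPM and the mannitol libraries 12.6, 14.8 and 15.0. With heat the libraries had 16.6, 11.4 and 15.4 TPM, and with salt plus heat 9.73, 10.1 and 9.78. Neither the mannitol, the heat nor the salt plus heat libraries overlapped the control range.

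Relative to control, NRT1.1 fell with mannitol (log2 fold change -0.63, SE 0.12, adjusted p = 0.000324) and with heat (-0.59, SE 0.12, adjusted p = 0.00013). It was lowest with salt plus heat, at 9.86 ± 0.182 TPM (SD, n = 3), a log2 fold change of -1.12 (SE 0.12, adjusted p = 2.68e-08). Mannitol plus heat gave -0.95 and all 3 stresses -0.83, both called. Salt alone gave -0.34 (adjusted p = 0.0593), which passes the threshold without control replicate 1 (-0.40). The call with salt plus mannitol (-0.38, adjusted p = 0.0134) was lost with library totals alone (-0.26), without the 4 libraries of highest organelle share (-0.29), and without control replicate 3 (-0.32) or salt plus mannitol replicate 1 (-0.36) or 2 (-0.29).

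NRT2.1, a high-affinity nitrate transporter known mainly from roots, was barely detected. The control libraries held 53 reads between them and the salt plus mannitol libraries 38, against 23 with salt and 28 with mannitol. Heat left 5 reads, salt plus heat 2, mannitol plus heat 6 and all 3 stresses 4. The highest heated library, mannitol plus heat replicate 3, had 0.0976 TPM, and the unheated libraries had 0.163 to 0.609 TPM. The heated and unheated libraries therefore did not overlap.

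As a ratio of read rates to control, NRT2.1 was at 0.495 with salt, 0.496 with mannitol and 0.716 with salt plus mannitol. The ratio was 0.0916 with heat and 0.0431 with salt plus heat. Mannitol plus heat gave 0.133 and all 3 stresses 0.0946. These ratios pool few reads over the libraries of a group and are descriptions only. Of the reads with heat 3 of 5 came from 1 library, and with mannitol plus heat 4 of 6. The gene passed the read minimum of the tests in its 3 control libraries and 2 libraries of salt plus mannitol and in no other. A lower value in the other groups was therefore built into its entry, and no fitted change, interval or call is given for it. Of the 1563 runs of 31 bases in its coding sequence, 305 also occur in its neighbour AT1G08100 (NRT2.2), so its reads cannot be fully separated from that gene's, which is listed at 0 in every library.

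NIA1, the less abundant of the nitrate reductase transcripts here, had 9.44, 10.9 and 11.2 TPM in control and 10.4, 13.6 and 10.6 with mannitol. Salt gave 6.11, 6.66 and 7.38 TPM, and heat 4.36, 6.21 and 5.52. Salt plus heat gave 1.38, 1.56 and 1.25 TPM, the lowest libraries of all. Mannitol plus heat had 2.34, 3.04 and 2.85 TPM and all 3 stresses 2.11, 1.68 and 1.70, so neither overlapped the libraries with heat alone or any unheated library.

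NIA1 fell with salt (log2 fold change -0.65, SE 0.13, adjusted p = 0.00314) and with heat (-0.95, SE 0.13, adjusted p = 1.97e-06). With mannitol the value was 0.14 (adjusted p = 0.482). With salt plus heat it fell to 0.136 of the control level (-2.88, SE 0.15, adjusted p = 5.16e-13). The values were -1.92 with mannitol plus heat, -2.49 with all 3 stresses and -0.79 with salt plus mannitol, all called. In order of group means, mannitol and control overlapped at the top, and salt, salt plus mannitol and heat overlapped in the middle. Mannitol plus heat, all 3 stresses and salt plus heat then followed without overlap.

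NIA2, which carries most of the nitrate reductase activity of Arabidopsis leaves, had 85.4, 94.1 and 90.0 TPM in control. Its libraries had 93.2, 127 and 97.3 TPM with heat, 47.0, 47.8 and 50.9 with salt plus heat and 59.7, 49.4 and 54.8 with mannitol plus heat. With all 3 stresses they had 83.3, 72.4 and 73.3 TPM. The libraries with salt plus heat and with mannitol plus heat lay below every library without heat and below those with heat alone, while those with all 3 stresses lay above both and reached into the range of the salt libraries, which had 81.9, 94.8 and 109 TPM.

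NIA2 fell against control with salt plus heat (log2 fold change -0.85, SE 0.12, adjusted p = 1.51e-06) and with mannitol plus heat (-0.69, SE 0.12, adjusted p = 2.23e-05). No other comparison with control was called. Heat alone gave 0.26 (SE 0.12, adjusted p = 0.0607), which passes the threshold without heat replicate 1 (0.34) or 3 (0.31). All 3 stresses gave -0.21 (SE 0.12, adjusted p = 0.112).

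NIR1, the plastid nitrite reductase, had 61.3, 69.1 and 70.0 TPM in control and 65.3, 83.1 and 75.4 with heat. Salt plus heat gave 47.3, 46.8 and 44.1 TPM and mannitol plus heat 54.0, 49.9 and 53.7. All 3 stresses gave 59.5, 47.9 and 56.8 TPM. None of these last 9 libraries overlapped the control range.

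NIR1 fell with salt plus heat (log2 fold change -0.50, SE 0.10, adjusted p = 8.34e-05) and mannitol plus heat (-0.32, SE 0.10, adjusted p = 0.00509). Scaled by library totals alone, where the median of all genes shifts by 0.12 for this comparison, the second value was -0.19 and not called. With all 3 stresses it fell as well (-0.27, SE 0.10, adjusted p = 0.0164). That call was lost without control replicate 3 (-0.23), without replicate 2 of the all-stress group (-0.18) and with library totals alone (-0.09).

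**Figure D2:**
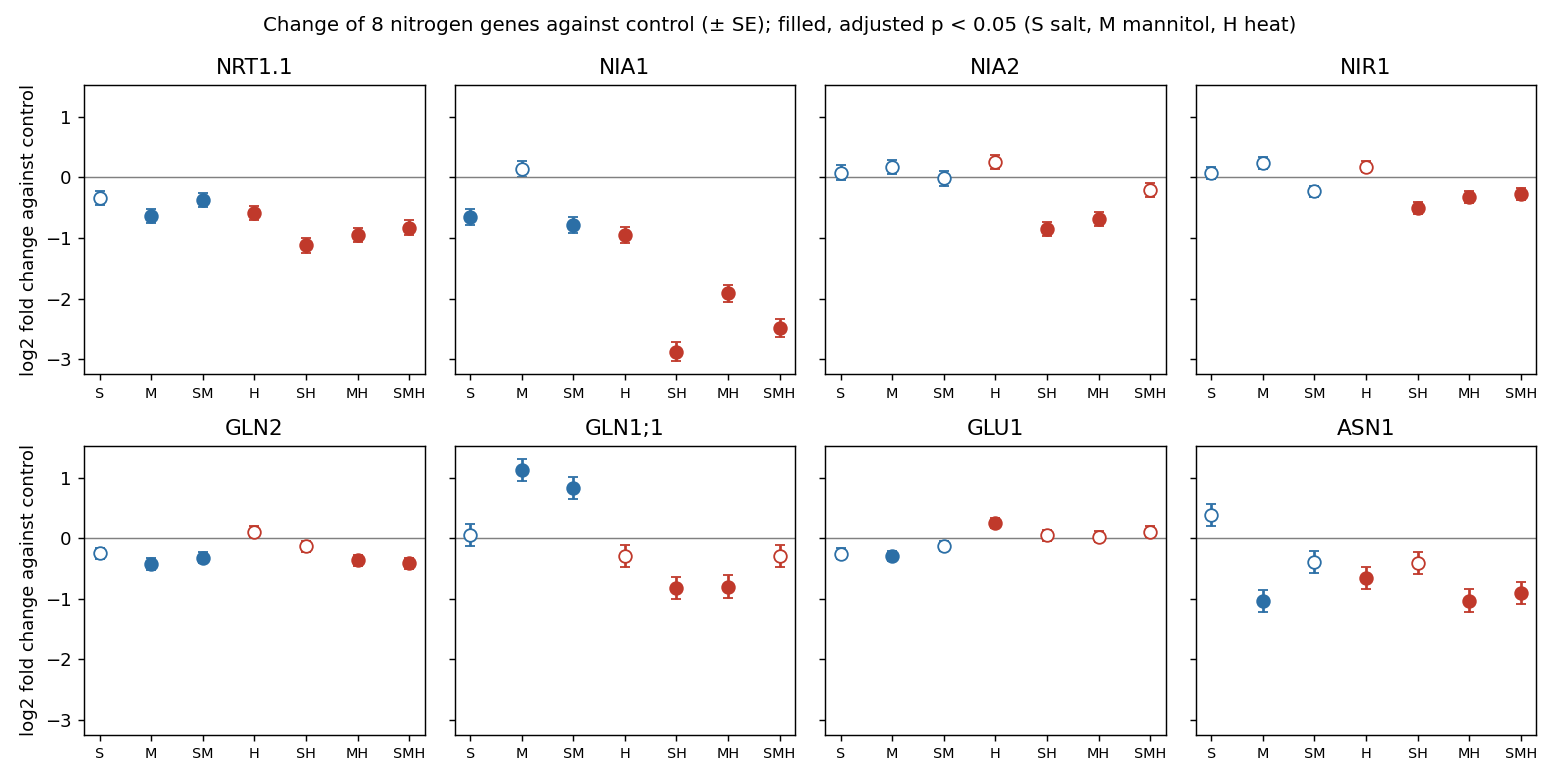
Log2 fold change against control (vertical axis) with its SE for 8 of the genes in each stress (horizontal axis), blue without and red with heat, filled where the adjusted p was under 0.05. NIA1 reaches -2.88 with salt plus heat, and GLN1;1 lies above 0 with mannitol (1.13) and below it with mannitol plus heat (-0.80). NRT2.1 is left out because of its low reads.

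Set against heat alone rather than control, NIA1, NIA2 and NIR1 were lower in every combination. The combinations were watered and no watering is recorded for the heat group, so here too the watering and its solute cannot be told apart. Salt added to heat called 206 of 20027 genes (1.03%, with 0.664% lower), among them 4 members, all lower. NIA1 fell by 1.93 (SE 0.16, adjusted p = 3.89e-07), NIA2 by 1.11 (SE 0.12, adjusted p = 3e-05) and NIR1 by 0.68 (SE 0.10, adjusted p = 0.000639) on the log2 scale. The other, NRT1.1 (-0.54, adjusted p = 0.0308), lost its call without heat replicate 1 (-0.43) or 3 (-0.49) or any salt plus heat library (-0.55 to -0.53), and when only these 2 groups were fitted.

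Mannitol added to heat called 12.3% of genes (6.31% lower) and 5 members, all lower. These were NIA1 (-0.96), NIA2 (-0.95), NIR1 (-0.50), GLN2 (-0.47) and NRT1.1 (-0.36). NRT1.1 lost its call without heat replicate 1 (-0.26) or 3 (-0.32), without mannitol plus heat replicate 2 (-0.32) or 3 (-0.34), with library totals alone (-0.30), with no filter on low counts (-0.35), by limma (-0.35 and -0.33) and without the 4 libraries of highest organelle share (-0.32). NRT1.1 and GLN2 were not called when only these 2 groups were fitted. Salt and mannitol added to heat called 23.1% of genes (13.1% lower) and 4 members, all lower, which were NIA1 (-1.54), GLN2 (-0.52), NIA2 (-0.47) and NIR1 (-0.45).

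On plants already given salt, heat called 59.1% of genes and changed 7 of the 8 members. GLU1 rose and the others fell, GLN2 being the one not called. On mannitol-treated plants heat called 61% of genes and changed 6, GLU1 higher and NRT1.1, NIA1, NIA2, NIR1 and GLN1;1 lower. On plants given both, heat called 59.9% of genes and changed 5, GLU1 higher and NRT1.1, NIA1, GLN1;1 and ASN1 lower. NIA2 had log2 fold changes of -0.93, -0.86 and -0.20 across these 3 waterings, the last not called. NIA1 fell in all 3, by 2.23, 2.05 and 1.71.

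In the mannitol-treated plants the NRT1.1 call under heat (-0.32) was lost without mannitol replicate 2 (-0.27) or 3 (-0.28) and without mannitol plus heat replicate 2 (-0.27) or 3 (-0.29). Without the 4 libraries of highest organelle share it was lost as well (-0.23). In the plants given both, GLU1 (0.24) lost its call without salt plus mannitol replicate 1 (0.23) or 2 (0.23) or all-stress replicate 1 (0.20), and without those 4 libraries (0.23). ASN1 (-0.51) lost it there without salt plus mannitol replicate 1 (-0.50) or 3 (-0.47) or all-stress replicate 1 (-0.37).

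The measured change in a combination was then compared with the sum of the single log2 changes. For salt plus heat this departure was called for 1.4% of genes (0.544% lower) and for 3 members, which are the 3 reductases. NIA1 lay 1.28 log2 units lower than the sum (departure -1.28, SE 0.20, adjusted p = 0.00438), NIA2 had a departure of -1.19 (SE 0.17, adjusted p = 0.00168) and NIR1 of -0.75 (SE 0.13, adjusted p = 0.00762). For NIA2 and NIR1 the summed single changes were above 0, at 0.34 and 0.25, while the measured changes were -0.85 and -0.50. The departures of GLN2 (0.02), GLU1 (0.05), ASN1 (-0.12) and NRT1.1 (-0.20) had SE of 0.12 to 0.26 and were not called.

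For mannitol plus heat the departure was called for 8.78% of genes (5.19% lower) and for 4 members. NIA1 departed by -1.10 (SE 0.19, adjusted p = 0.00151), NIA2 by -1.12 (SE 0.17, adjusted p = 0.000352) and NIR1 by -0.74 (SE 0.13, adjusted p = 0.00198). GLN1;1 departed by -1.64 (SE 0.26, adjusted p = 0.000939). The same 7 departures of both combinations were called in every alternative setting tried and without any of the libraries in turn, except under the demand for a log2 change of at least 1, which the NIR1 values do not reach. The 2 combinations share the control and heat libraries, so their values are not independent. Whether heat met the solute or the watering cannot be told apart in them.

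For salt plus mannitol the departure was called for 6.6% of genes and for 3 members. NIR1 departed by -0.54 (SE 0.13, adjusted p = 0.0188), NRT1.1 by 0.59 (SE 0.16, adjusted p = 0.0312) and GLU1 by 0.42 (SE 0.12, adjusted p = 0.0414). The sum counts the watering in 2 single treatments and the combination holds 1, so the watering cannot be told apart from this departure. NIR1 lost the call without salt replicate 3 (-0.46) and, like GLU1, without the 4 libraries of highest organelle share. NRT1.1 and GLU1 lost it with library totals alone (0.50 and 0.33). NRT1.1 lost it without control replicate 2 (0.59) or 3 (0.54), salt replicate 1 (0.58) or 2 (0.54), mannitol replicate 1 (0.52), or salt plus mannitol replicate 1 (0.62) or 3 (0.48). GLU1 lost it without any of 10 libraries, which were control replicates 2 and 3, every salt library, mannitol replicates 2 and 3 and every salt plus mannitol library (0.34 to 0.44). It also lost it when only the compared groups were fitted (0.42).

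For all 3 stresses the departure was called for 9.22% of genes and for 4 members, with NIA1 at -1.03, NIR1 at -0.76, GLN1;1 at -1.19 and NRT1.1 at 0.73. Here too the sum counts the watering in 2 single treatments and the combination holds 1, so the watering cannot be told apart from the departure. Each of these calls was lost without at least 1 library. NIA1 lost it without control replicate 1 (-0.89) or 2 (-1.08) and by limma on log2(TPM + 1) (-0.70), and NIR1 without control replicate 1 (-0.64). NRT1.1 lost it without any of 11 of the libraries (0.58 to 0.77) and GLN1;1 likewise without any of 11 (-1.25 to -0.99). Both lost it by limma and without the 4 libraries of highest organelle share (0.76 and -1.02). NRT1.1 lost it with library totals alone (0.63) and when only the compared groups were fitted (0.73), and GLN1;1 with no filter on low counts (-1.18). NIA2 was not called (-0.72, SE 0.24, adjusted p = 0.0566).

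**Figure D3:**
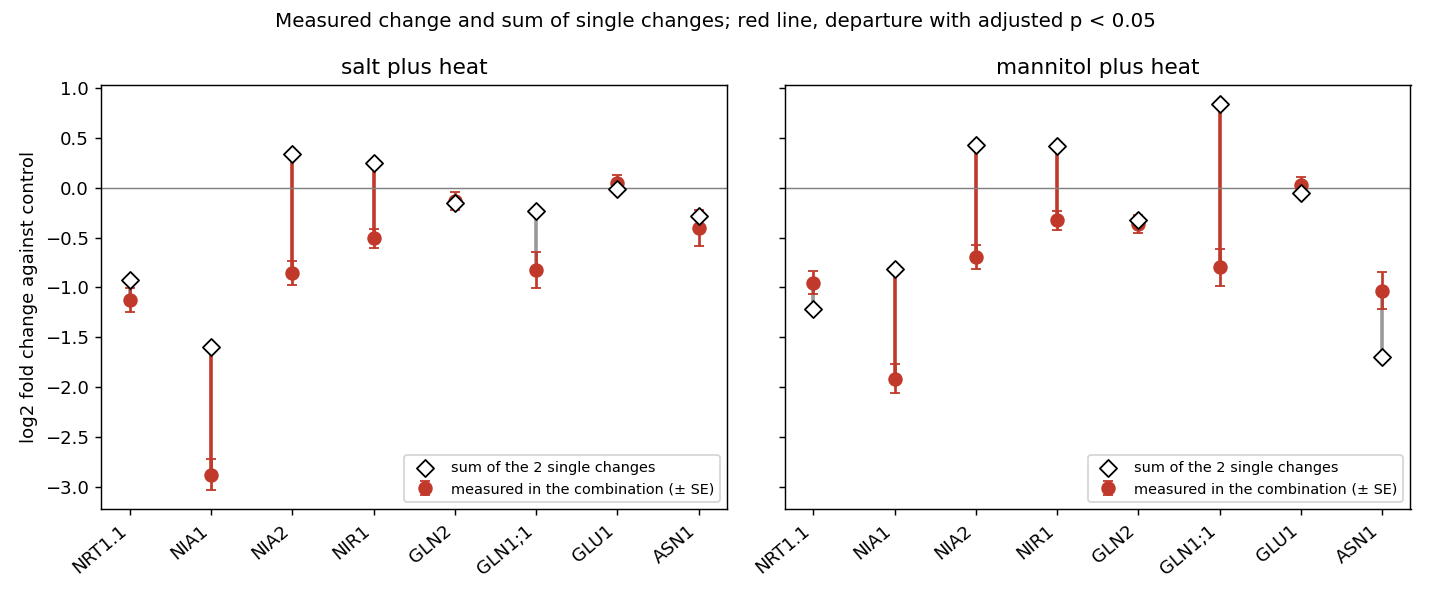
Measured log2 fold change against control (circles, ± SE) and the sum of the 2 single changes (diamonds) for 8 genes with salt plus heat (left) and mannitol plus heat (right). A red line joins them where the departure had an adjusted p under 0.05: NIA1, NIA2 and NIR1 lie below the sum in both, and GLN1;1 does so with mannitol plus heat (-0.80 measured, 0.84 summed).

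The share of NIA1 in the sum of NIA1 and NIA2 does not depend on scaling between libraries. It was 10.5 ± 0.571% in control, 6.61 ± 0.309% with salt, 10.3 ± 0.870% with mannitol and 6.43 ± 0.883% with both (SD, n = 3 each). With heat it was 4.83 ± 0.478%, 2.80 ± 0.390% in salt plus heat, 4.84 ± 1.02% in mannitol plus heat and 2.34 ± 0.116% with all 3 stresses. Averaged over the waterings, heated minus unheated was -4.74 percentage points (exact permutation test within waterings, two-sided p = 1.25e-05, the smallest its 160000 arrangements can give). The unheated libraries ranged from 5.73 to 11.1% and the heated ones from 2.27 to 5.81%, and within each watering the heated and unheated libraries did not overlap.

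GLN2, the plastid glutamine synthetase, was the most abundant member. The control libraries had 729, 796 and 871 TPM, and mannitol gave 648, 609 and 520. All 3 stresses gave 620, 587 and 568 TPM, and heat 849, 827 and 865. The mannitol and all-stress libraries lay below the control range, and the heat libraries within it.

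GLN2 fell with mannitol (log2 fold change -0.43, SE 0.09, adjusted p = 0.00157), with mannitol plus heat (-0.36, SE 0.09, adjusted p = 0.00147) and with all 3 stresses (-0.42, SE 0.09, adjusted p = 0.000385). With heat alone the value was 0.10 (adjusted p = 0.341). Salt gave -0.25 (adjusted p = 0.0834). The call with salt plus mannitol (-0.32, adjusted p = 0.00935) was lost without control replicate 3 (-0.25) and with library totals alone (-0.20).

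GLN1;1, a cytosolic glutamine synthetase, had the widest changes of the ammonium-assimilating members. Control libraries had 63.3, 51.0 and 56.7 TPM, mannitol 97.0, 143 and 134, and salt plus mannitol 99.5, 103 and 105. Heat gave 41.1, 58.5 and 38.7 TPM, mannitol plus heat 35.6, 33.7 and 27.9, and salt plus heat 22.1, 31.7 and 41.0. All 3 stresses gave 48.0, 47.0 and 43.2 TPM, above every library of mannitol plus heat and of salt plus heat. All libraries with mannitol at 22 °C lay above the others. Those of mannitol plus heat, salt plus heat and all 3 stresses lay below control.

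GLN1;1 rose with mannitol (log2 fold change 1.13, SE 0.18, adjusted p = 0.000156) and with salt plus mannitol (0.83, SE 0.18, adjusted p = 0.00158). It fell with salt plus heat (-0.83, SE 0.18, adjusted p = 0.000663) and mannitol plus heat (-0.80, SE 0.18, adjusted p = 0.000854). Salt alone gave 0.06 (adjusted p = 0.89) and heat alone -0.29 (adjusted p = 0.173), which passes the threshold without heat replicate 2 (-0.50). Within mannitol-treated plants heat lowered it by 1.93 (SE 0.19, adjusted p = 4.1e-08). Of the 1041 runs of 31 bases in its coding sequence, 30 also occur in other glutamine synthetase genes, and its reads were whole numbers in 19 of 24 libraries. A small part of its reads was therefore divided among genes.

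The share of GLN1;1 in the sum of GLN1;1 and GLN2 was 6.71 ± 1.11% in control, 8.10 ± 0.521% with salt, 17.5 ± 3.95% with mannitol and 13.7 ± 0.457% with both (SD, n = 3 each). With heat it was 5.17 ± 1.26%, and 4.23 ± 1.28%, 5.10 ± 1.00% and 7.23 ± 0.178% in heat with salt, with mannitol and with both. Heated minus unheated was -6.08 percentage points (exact permutation test within waterings, two-sided p = 3.75e-05). The difference was largest in the waterings that held mannitol. The control libraries (6.02 to 7.99%) overlapped those with heat alone (4.28 to 6.61%). Within the other waterings the heated and unheated libraries did not overlap.

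**Figure D4:**
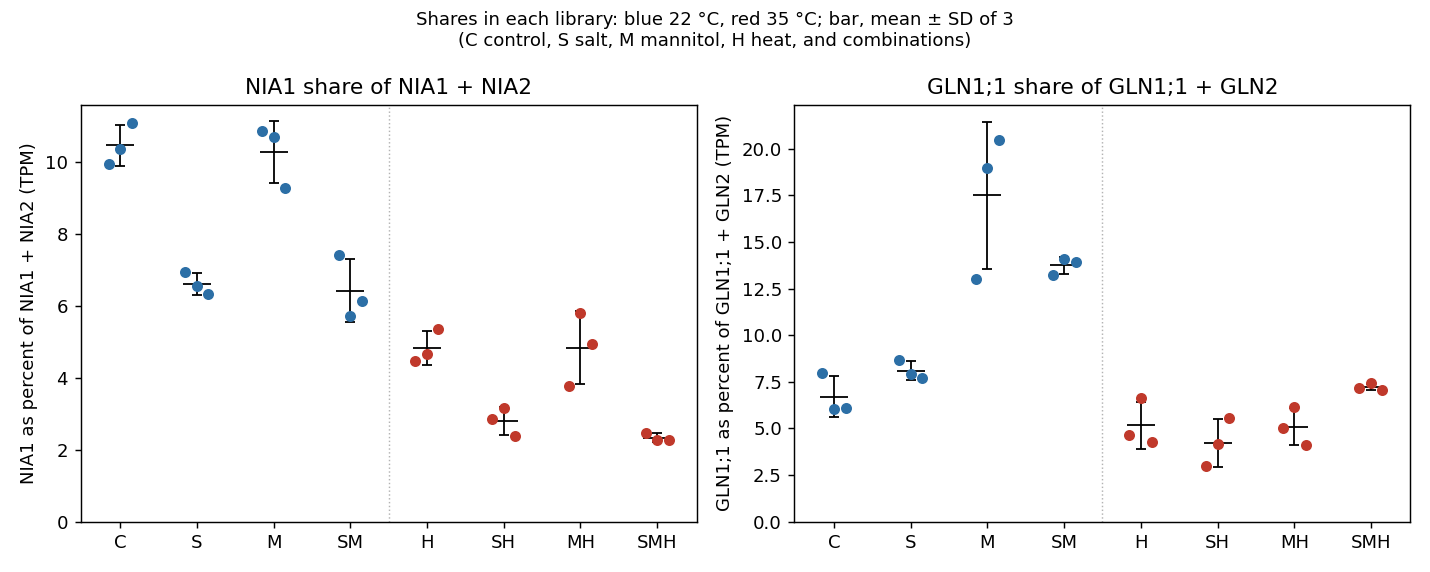
NIA1 as a percent of NIA1 plus NIA2 (left) and GLN1;1 as a percent of GLN1;1 plus GLN2 (right), from TPM in each library (points), with the mean and SD of 3. NIA1 is at 2.27 to 5.81% in the heated libraries (red) and 5.73 to 11.1% in the unheated ones (blue), and GLN1;1 reaches 20.5% with mannitol at 22 °C.

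GLU1, the ferredoxin-dependent glutamate synthase of plastids, varied little, its highest group mean being 1.45 times its lowest. Control libraries had 150, 173 and 189 TPM and heat libraries 197, 181 and 220, which overlap. Mannitol libraries had 148, 138 and 129 TPM, just below control. Mannitol lowered GLU1 (log2 fold change -0.30, SE 0.09, adjusted p = 0.0145), a call lost without control replicate 3 (-0.22) or mannitol replicate 3 (-0.24), with library totals alone (-0.20) and when only these 2 groups were fitted. Heat raised it (0.25, SE 0.09, adjusted p = 0.0162), a call lost without control replicate 1 (0.16) or heat replicate 3 (0.16) and when only these 2 groups were fitted. Heat raised it also in salt-treated (0.30, adjusted p = 0.00468) and mannitol-treated plants (0.32, adjusted p = 0.00264), where no left-out library ended the call.

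ASN1, an asparagine synthetase known to be induced in darkness and by low sugar, was lower with mannitol and with heat. Control libraries had 47.2, 45.1 and 37.2 TPM, salt 52.4, 58.6 and 57.8, and mannitol 23.9, 22.9 and 16.2. Heat gave 25.0, 32.2 and 23.8 TPM, mannitol plus heat 18.5, 28.1 and 16.0, and all 3 stresses 18.3, 23.6 and 26.2. Every salt library was above control and every mannitol or heat-containing library in these groups was below it.

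ASN1 fell with mannitol (log2 fold change -1.04, SE 0.18, adjusted p = 0.000431), with heat (-0.66, SE 0.18, adjusted p = 0.00403), with mannitol plus heat (-1.03) and with all 3 stresses (-0.91). Salt gave 0.38 (SE 0.18, adjusted p = 0.201), which was called only when the salt and control groups alone were fitted. Salt plus heat gave -0.40 (SE 0.18, adjusted p = 0.0607), which passes the threshold by DESeq2 (-0.41), by limma with either pseudocount (-0.42 and -0.43), in the fit of only these 2 groups (-0.40), without the 4 libraries of highest organelle share (-0.40) and without control replicate 3 (-0.51). Mannitol against salt at 22 °C, where 22.2% of genes were called, changed 3 members. ASN1 was lower with mannitol (-1.41, SE 0.19, adjusted p = 2.29e-05), and NIA1 (0.79) and GLN1;1 (1.07) were higher. In heat the same comparison called 3.01% of genes (1.61% higher) and 1 member, NIA1, at 0.96 (SE 0.16, adjusted p = 0.00286). There ASN1 had -0.63 (adjusted p = 0.07), which passes the threshold without mannitol plus heat replicate 2 (-0.89).

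The rest of the pathway was read from lists of further genes. Their counts stand beside 62.6% of all tested genes called with heat, which were 6346 higher and 6185 lower genes. With heat alone the lists ranged from 6 of 11 to 5 of 7 called, near that share. Of 17 other genes of ammonium assimilation and amide metabolism, 16 were tested. Heat changed 9 of them, all lower, and salt plus heat and mannitol plus heat each changed 12, all lower, beside 31.5% and 32% of all genes called lower. ASN2, another asparagine synthetase, fell from 66.7 ± 6.32 TPM in control to 19.9 ± 1.53 with salt plus heat (log2 fold change -1.71, SE 0.11). GLT1, the NADH-dependent glutamate synthase, fell from 40.8 ± 2.51 to 18.9 ± 1.90 TPM there. GDH1, a subunit of glutamate dehydrogenase, rose with mannitol from 38.6 ± 3.28 to 73.2 ± 7.27 TPM and fell with heat to 18.7 ± 1.39.

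Among 14 tested of 18 other nitrate transporters and channels, heat raised 5 and lowered 4. NRT1.4, which is known for nitrate in leaf petioles, rose from 47.9 ± 6.89 TPM in control to 126 ± 3.02 with heat. NRT2.7, a seed vacuole transporter, fell from 27.0 ± 3.88 to 14.4 ± 0.774 TPM. NRT3.1, the partner protein that NRT2.1 needs, rose with mannitol from 19.8 ± 3.66 to 45.9 ± 8.69 TPM and was at 9.26 ± 3.26 with salt plus heat, where it fell. Of 6 ammonium transporters 5 were tested. Heat raised 2 and lowered 1, and mannitol plus heat raised 1 and lowered 3, where 64.7% of all tested genes were called. AMT1;1 rose with mannitol from 24.8 ± 2.69 to 53.2 ± 12.0 TPM, and AMT1;2 rose with heat from 5.73 ± 0.392 to 12.2 ± 0.248 TPM. AMT1;2 was called lower with salt, with mannitol and with salt plus mannitol.

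Of 12 genes for reductant supply, heat raised 2 and lowered 6. FD1, a leaf ferredoxin, rose from 244 ± 31.7 TPM in control to 1143 ± 17.3 with heat, while FD2, the main leaf ferredoxin, fell from 3512 ± 218 to 1856 ± 131. Of 7 genes for the cofactors of nitrate and nitrite reductase, heat raised 3, including UPM1 of the siroheme pathway (30.4 ± 1.35 to 63.7 ± 6.81 TPM), and lowered 2. CNX6, a molybdenum cofactor gene, fell from 37.2 ± 0.687 to 22.2 ± 0.574 TPM with mannitol plus heat.

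Of 25 tested among 26 genes of nitrate signalling and nitrogen regulation, heat raised 6 and lowered 10. NRG2, a nitrate regulatory protein, fell from 36.2 ± 2.98 TPM in control to 15.7 ± 1.85 with heat, and NLP6, a NIN-like transcription factor, from 5.94 ± 0.305 to 2.38 ± 0.128. BT1, a BTB and TAZ domain protein, rose from 7.77 ± 0.445 to 24.6 ± 3.24 TPM. Of 11 genes of darkness and sugar starvation with their bZIP factors, to which ASN1 is usually added, heat raised 4 and lowered 2. With mannitol 1 was called, lower, where 23.6% of all tested genes were called. The median log2 fold change of these 11 was 0.52 with heat, -0.26 with mannitol, -0.15 with salt plus heat, -0.18 with mannitol plus heat and 0.06 with all 3 stresses. DIN4 rose with heat from 12.1 ± 0.608 to 23.6 ± 0.820 TPM. Of the green leaf markers 2 of 4 were called lower with salt, where 6.4% of all tested genes were called lower. With mannitol 2 of 4 were lower and with salt plus mannitol 3 of 4, where 23.6% and 32.6% of genes were called. With heat 3 of 4 were lower, where 62.6% of genes were called. Salt plus heat lowered 3 of 4, and mannitol plus heat and all 3 stresses 4 of 4. There 31.5%, 32% and 32.7% of genes were called lower. RBCS1A was at 24194 ± 1562 TPM in control and 10779 ± 676 with heat. With salt and mannitol added to heat 3 of 4 markers were lower, where 13.1% of genes were called lower. With salt or mannitol alone added to heat the markers' median log2 fold changes were 0.02 and -0.16. The part of these markers in the members' changes was not tested.

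Among 14720 genes, likeness of pattern was measured as the root mean square difference between centred log2 profiles over the 8 group means. NIA1 was closest to AT1G27020 at 0.28 and NIA2 to AT4G13180 at 0.13. NRT1.1 was closest to bHLH115 at 0.08, GLN1;1 to AT1G18390 at 0.12 and ASN1 to TRFL9 at 0.20. Among the members themselves the smallest differences were between GLN2 and GLU1 at 0.17 and between NIA2 and NIR1 at 0.19. The measure is not scaled to the span, so genes that vary little come out close. GLN2 and GLU1 each spanned 0.54 log2 units, and with mannitol plus heat they had -0.36 and 0.03 against control. NIR1, GLN2 and GLU1 spanned less than 1 log2 unit and were not matched with other genes.

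In the authors' deposited table, q-values under 0.05 were given to 1 of the 9 members with salt, 4 with mannitol, 7 with heat and 6 with salt plus mannitol. The authors' deposited table gave such q-values to all 9 with each of salt plus heat, mannitol plus heat and all 3 stresses, with GLU1 higher and the other 8 lower. GLU1 had natural-log effects of only 0.04, 0.03 and 0.08 there and was not called in those groups by the test used here. The share of all genes with such q-values was not counted, so these counts cannot be set against it. The 9 include NRT2.1. For NIA1 with salt plus heat the authors' deposited table has a natural-log effect of -1.99.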

How the data were processed

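RNA from rosettes was sequenced as read pairs, per the labels' protocols, and CASAVA, kallisto 0.45.1 and sleuth 0.30.0 are named in the submitters' processing notes. The genome build is not given in the sources used here, and Araport 11 is the annotation per the file headers. The deposited table holds the authors' estimated counts and TPM per gene. The TPM columns sum to between 0.920 and 1.12 M per library, so they were handled as a deposited signal on the authors' scale. The authors also deposited q-values and effects on the natural log scale for each stress against control. Every library's estimated counts were whole numbers times a constant (0.797 to 1.25), with 94.7 to 95.2% of values whole within 0.01, so they were divided by it and rounded. For the 9 genes, reads per TPM followed the coding length less 164 to 185 bases and not the transcript length, so TPM is taken here as a level per coding length.

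Differences were tested with edgeR 4.0.16 (TMM factors, filterByExpr, quasi-likelihood F test, all 24 libraries in 1 fit by group) in R 4.3.3, with Benjamini-Hochberg adjustment over 20027 genes. The procedure was also run on simulated counts in which few genes changed, evenly higher and lower, and in the heat group alone. That does not test it where most genes are called, as with heat here. The SE is the absolute log2 fold change over the square root of F. Alternatives were DESeq2 1.42.0, limma 3.58.1 on log2(TPM + 1) and log2(TPM + 0.1), RLE factors, library totals alone, no filter, the deposited counts as they stand, a replicate block, only the compared groups, a log2 change of at least 1, and each library left out. Leaving out the 4 libraries of highest organelle share was chosen after seeing the data. Deposited gene coordinates overlapped the same gene on the same strand of TAIR10.1 for 26641 of 26642 genes. Members and lists were chosen with earlier results of these data known. All members are named. From each list the called genes with the largest changes and at least 5 TPM in a compared group were named, up to 3 a comparison with control. The library kit is not stated to keep strand, and GLU1 and ASN1 overlap an opposite-strand gene by 29 and 11 bases.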

Additional observations from a re-analysis of the deposited data

Results flagged for a closer look

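Among the 9 genes, 10 departures of a pair of stresses from the sum of their single log2 changes passed the test of the difference itself. The departures of all 3 stresses together, which are no difference between a pair of effects, are not among them. For salt plus heat these were NIA1 (-1.28), NIA2 (-1.19) and NIR1 (-0.75). For mannitol plus heat they were NIA1 (-1.10), NIA2 (-1.12), NIR1 (-0.74) and GLN1;1 (-1.64). In these 2 pairs the effect of heat differed with the watering given, and whether heat met the solute or the watering cannot be told apart. For salt plus mannitol the departures were NRT1.1 (0.59), NIR1 (-0.54) and GLU1 (0.42). There the watering counted in both single treatments cannot be told apart from the departure, and each call was lost without at least 1 library.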

How the results depend on the processing

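Over the 8 members other than NRT2.1 and 19 comparisons there were 80 calls, of which 61 held under every setting and left-out library other than the demand for a log2 change of at least 1, and 19 were lost in at least 1. None of these reversed. The member counts below are over all 9 members and include NRT2.1, whose lower values in most groups were built into its entry. They stand without the share of all genes, so they show only how the calls moved with the setting. The cause was not tested.

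With that demand the members called were 0 for salt, 3 for mannitol, 1 for heat, 0 for salt plus mannitol, 3 for salt plus heat, 3 for heat with mannitol and 2 under all 3 stresses, fewer by construction. The 1 for heat was NRT2.1. That gene was also among those counted for mannitol, salt plus heat, heat with mannitol and all 3 stresses. The members called were 2, 3 and 3 for heat on salt, on mannitol and on both, with NRT2.1 among them each time. They were 2, 0 and 1 for salt, mannitol and both added to heat, 0 for mannitol against salt in heat, 0 for the departure of salt plus mannitol and 2 for that of all 3. Salt alone, with 1 member called, had 2 by DESeq2, 2 by limma with either pseudocount, NRT2.1 being the added one in limma, and 3 when only the compared groups were fitted. Mannitol added to heat had 3 in that fit. Mannitol against salt in heat had 2 by DESeq2 and 2 without the 4 libraries of highest organelle share. Library totals alone gave 2 for salt plus mannitol and 1 for its departure, which also had 1 without those 4 libraries. The departure of all 3 had 2 by limma with either pseudocount and 2 without those libraries.

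Leaving out each library gave 1 to 3 members for salt, 4 to 6 for mannitol, 4 to 7 for heat, 2 to 5 for salt plus mannitol, 6 to 7 for salt plus heat, 8 to 8 for mannitol plus heat and 5 to 6 for all 3. It gave 8 to 8, 6 to 7 and 4 to 6 for heat on salt, on mannitol and on both, and 3 to 4, 4 to 5 and 4 to 5 for salt, mannitol and both added to heat. Mannitol against salt had 3 to 3 at 22 °C and 1 to 2 in heat. The departures had 1 to 3 for salt plus mannitol, 3 to 3 for salt plus heat, 4 to 4 for mannitol plus heat and 1 to 5 for all 3. The heat difference ranged from -4.87 to -4.61 points in the NIA1 share and from -6.64 to -5.71 in the GLN1;1 share.

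Deviations from the group means were about as alike in same-numbered libraries (correlations -0.33 to 0.28, median 0.0007, over 84 pairs) as in others. The others had -0.32 to 0.35 (median -0.004, over 168 pairs). This check cannot tell whether the numbers mark rounds of growth or harvest. With a replicate block salt had 2 members called, NRT1.1 (-0.34, adjusted p = 0.0457) being added, and the departures of GLU1 with salt plus mannitol (0.42, adjusted p = 0.0512) and GLN1;1 with all 3 (-1.17, adjusted p = 0.0617) were lost.

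Over all genes, salt added to heat called 206, against 411 by DESeq2 and 79 in the fit of only those groups. The departure of salt plus heat called 281, against 585 by DESeq2 and 136 without the 4 libraries. Mannitol added to heat called 2465, against 588 and 1388 in these last 2 settings, and the departure of mannitol plus heat 1759, against 591 and 779. The fit of only the compared groups called 2966 genes against 4623 for salt and mannitol added to heat and 286 against 602 for mannitol against salt in heat. Without the 4 libraries the counts were 1400 against 2191 for salt, 2563 against 4443 and 256 against 602 for mannitol against salt at 22 °C and in heat, and 673 against 1322 for the departure of salt plus mannitol. Library totals alone shifted the median of all genes by 0.06 to 0.17 on the log2 scale against control. They moved the split into higher and lower genes from 909 and 1282 to 2434 and 747 for salt, from 2447 and 2280 to 3827 and 1398 for mannitol, from 3083 and 3441 to 5298 and 2298 for both, from 6534 and 6416 to 7800 and 5016 for mannitol plus heat, and from 6611 and 6543 to 8438 and 4845 for all 3. For the additions to heat it went from 73 and 133 to 87 and 91, from 1201 and 1264 to 2001 and 818, and from 1996 and 2627 to 3684 and 1477, and for mannitol against salt in heat from 322 and 280 to 422 and 172. For the departures it went from 569 and 753 to 327 and 1348 (salt plus mannitol), from 172 and 109 to 85 and 193 (salt plus heat) and from 825 and 1022 to 569 and 1411 (all 3). Depth limits NRT2.1, with at most 25 reads in a library.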
